A study of Mus musculus with 2 samples.

Results

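Hox genes encode homeodomain transcription factors that assign position along the head-to-tail axis of the embryo. The 38 Hox genes described here were taken by name, as the members of the Hoxa, Hoxb, Hoxc and Hoxd clusters that were considered, out of 21755 protein-coding genes on chromosomes 1 to 19 and X in the GENCODE M21 annotation. They comprised 10 genes on chromosome 6 (Hoxa2 to Hoxa13), 10 on chromosome 11 (Hoxb1 to Hoxb13), 9 on chromosome 15 (Hoxc4 to Hoxc13) and 9 on chromosome 2 (Hoxd1 to Hoxd13). The genes were taken by their place in a cluster, with no threshold on a measured value. The measurement was ChIP-seq of Nanog, a homeodomain transcription factor of the pluripotent state, in Bruce-4 mouse embryonic stem cells (ESCs) grown in medium with fetal bovine serum and LIF. The study held 1 sample immunoprecipitated with a rabbit monoclonal antibody against Nanog and 1 input sample of chromatin that saw no antibody. The peak list of the first sample is the material of every result, and the input was not analysed here. There was no replicate and no second condition, so no p-value is given, and intervals on peak counts reflect counting error alone, with every peak taken as an independent event.

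The Hox genes of the mouse lie in 4 clusters that arose by duplication of 1 ancestral cluster, and members with the same number in different clusters (paralogs) are more alike in sequence than neighbours are. All genes of a cluster are transcribed in the same direction, and their order along the chromosome matches the order of their expression along the body axis: genes at the 3' end of a cluster (low numbers) are active early and up to the hindbrain, and genes at the 5' end (high numbers) late and toward the tail and the limb tips. In undifferentiated ESCs the clusters are textbook examples of chromatin bound by Polycomb complexes, and retinoic acid, Wnt signals and the Cdx proteins activate them on differentiation. Chromatin marks and expression were not measured in this sample.

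The peaks closest to the Hox genes are printed first, because the distances that follow are measured to them. A peak is an interval called as enriched for Nanog, and each was reduced to the 300 bases around its centre, or to its whole length where that was shorter. Sequences are the plus strand of GRCm38 (mm10), taken from RefSeq assembly GRCm38.p6, and capitals mark the 4-letter homeodomain core TAAT on either strand (ATTA where it lies on the minus strand), or overlapping copies of it. This core was chosen for display after the values were seen. It is present in 78.7% of all peak windows, so its presence sets no peak apart. The first 4 sequences are the peaks within 50 kb of a Hox transcription start site (TSS).
Hoxb1 peak, chr11:96374896-96375195: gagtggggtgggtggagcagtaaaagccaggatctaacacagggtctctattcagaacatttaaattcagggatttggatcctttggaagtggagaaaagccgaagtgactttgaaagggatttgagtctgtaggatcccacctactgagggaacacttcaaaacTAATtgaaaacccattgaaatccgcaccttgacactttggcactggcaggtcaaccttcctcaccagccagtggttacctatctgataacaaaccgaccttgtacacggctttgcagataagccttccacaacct
Hoxa13 peak, chr6:52306098-52306397: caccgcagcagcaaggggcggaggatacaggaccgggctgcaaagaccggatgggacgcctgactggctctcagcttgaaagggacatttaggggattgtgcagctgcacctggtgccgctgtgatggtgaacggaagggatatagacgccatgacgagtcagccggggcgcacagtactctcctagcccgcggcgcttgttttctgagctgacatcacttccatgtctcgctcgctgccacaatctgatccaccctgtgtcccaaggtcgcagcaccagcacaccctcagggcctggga
Hoxc13 peak, chr15:102872796-102873063: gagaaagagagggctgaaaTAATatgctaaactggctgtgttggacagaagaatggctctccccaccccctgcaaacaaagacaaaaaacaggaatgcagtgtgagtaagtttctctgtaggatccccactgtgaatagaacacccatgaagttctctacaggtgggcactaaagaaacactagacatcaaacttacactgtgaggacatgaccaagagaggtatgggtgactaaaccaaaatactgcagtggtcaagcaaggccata
Hoxa2 peak, chr6:52115600-52115899: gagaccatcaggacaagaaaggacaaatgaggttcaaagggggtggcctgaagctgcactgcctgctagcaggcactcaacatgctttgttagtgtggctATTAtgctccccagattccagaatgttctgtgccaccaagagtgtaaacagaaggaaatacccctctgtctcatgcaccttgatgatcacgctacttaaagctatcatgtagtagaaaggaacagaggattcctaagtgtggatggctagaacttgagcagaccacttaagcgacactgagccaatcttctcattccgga
The next 2 sequences lie farther away and are shown because each holds the Nanog core CCATTA, a choice also made after the matches were seen. Another peak with this core, upstream of Calcoco2, is described with the Hoxb genes and is not printed. The first lies in an intron of Evx1, beyond the 5' end of the Hoxa cluster, and the second is the nearest peak to all 9 Hoxd genes.
Evx1 peak, chr6:52314784-52315083: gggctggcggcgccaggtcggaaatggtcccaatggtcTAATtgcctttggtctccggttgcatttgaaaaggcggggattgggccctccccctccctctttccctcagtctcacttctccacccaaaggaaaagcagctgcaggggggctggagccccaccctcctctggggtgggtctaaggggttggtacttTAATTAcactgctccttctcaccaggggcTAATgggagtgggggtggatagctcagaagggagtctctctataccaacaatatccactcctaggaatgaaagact
Hoxd 3' peak, chr2:75048244-75048543: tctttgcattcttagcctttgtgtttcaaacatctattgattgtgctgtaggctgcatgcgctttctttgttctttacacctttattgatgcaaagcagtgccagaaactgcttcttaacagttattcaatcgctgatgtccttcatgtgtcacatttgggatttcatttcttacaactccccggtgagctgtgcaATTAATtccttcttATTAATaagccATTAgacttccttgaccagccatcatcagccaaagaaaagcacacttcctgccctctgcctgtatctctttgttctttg
The Hoxa13 peak window held no TAAT, the Hoxb1, Hoxc13 and Hoxa2 windows 1 copy each, the Evx1 window 4 and the Hoxd 3' window 5.

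None of the 4 Hox clusters contained a Nanog peak. The Hoxa genes spanned chr6:52162417-52260880 (98.5 kb, minus strand), the Hoxb genes chr11:96194316-96368256 (174 kb, plus strand), the Hoxc genes chr15:102921103-103036852 (116 kb, plus strand) and the Hoxd genes chr2:74668310-74765142 (96.8 kb, plus strand). Together these spans covered 485 kb and held 0 peaks, for which the exact two-sided 95% Poisson interval is 0 to 3.69 peaks. At the density of the genome, 3.41 peaks per Mb, 1.66 peaks would fall in this length, with 0.336 in Hoxa, 0.594 in Hoxb, 0.395 in Hoxc and 0.33 in Hoxd. By the one-sided limit of 3 counts, which is stricter, a count of 0 allows up to 6.19 peaks per Mb over the 4 spans. Both limits lie above the density of the genome, so a depletion relative to the genome as a whole was not detectable with a list of this size.

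Stretches without a peak were common at these lengths. Among all windows of the length of the Hoxa span, placed every 10 kb along the genome, 75.9% held no peak. The share was 63.5% for the length of the Hoxb span, 72.8% for Hoxc and 76.2% for Hoxd. These shares were lower among windows of the composition of the clusters, which are rich in G and C. The GC content of the spans was 50% in Hoxa, 48.9% in Hoxb, 49% in Hoxc and 49.4% in Hoxd, higher than in at least 94.9% of the windows of each length. Among windows within 3 percentage points of the GC content of the span, 57% held no peak at the Hoxa length, 38.2% at the Hoxb length, 51.6% at the Hoxc length and 57.3% at the Hoxd length. Among windows with at least as many protein-coding TSSs as the cluster, the shares were 64.8%, 46.1%, 52.9% and 59.6% in the same order. These shares rest on far fewer windows, 142, 3437, 1255 and 381. Neighbouring windows overlap, so the number of separate loci behind them is smaller still. In a comparison added after these values were seen, 3.22 peaks would fall in the 4 spans at the mean count of the windows of like GC content. The density within 1 Mb of each cluster would give 3.47. Both numbers lie under the two-sided limit of 3.69 peaks and above the one-sided limit of 3, so the observed 0 sits at the edge of what counting error allows against these local expectations.

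The sequence around the clusters did carry peaks. Within 100 kb of the edges of the 4 spans, a total of 800 kb, there were 7 peaks (95% interval 2.81 to 14.4) against 2.73 at the density of the genome, a ratio of 2.56 (1.03 to 5.28). Hoxa had 2 of them on its 3' side and 2 on its 5' side. Hoxb had 1 on each side, Hoxc had 1 on its 5' side, and Hoxd had none. The 7 peaks were 257 to 589 bp wide (median 366 bp, against 319 bp for the whole list), and 6 of the 7 were intergenic.

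**Figure D1:**
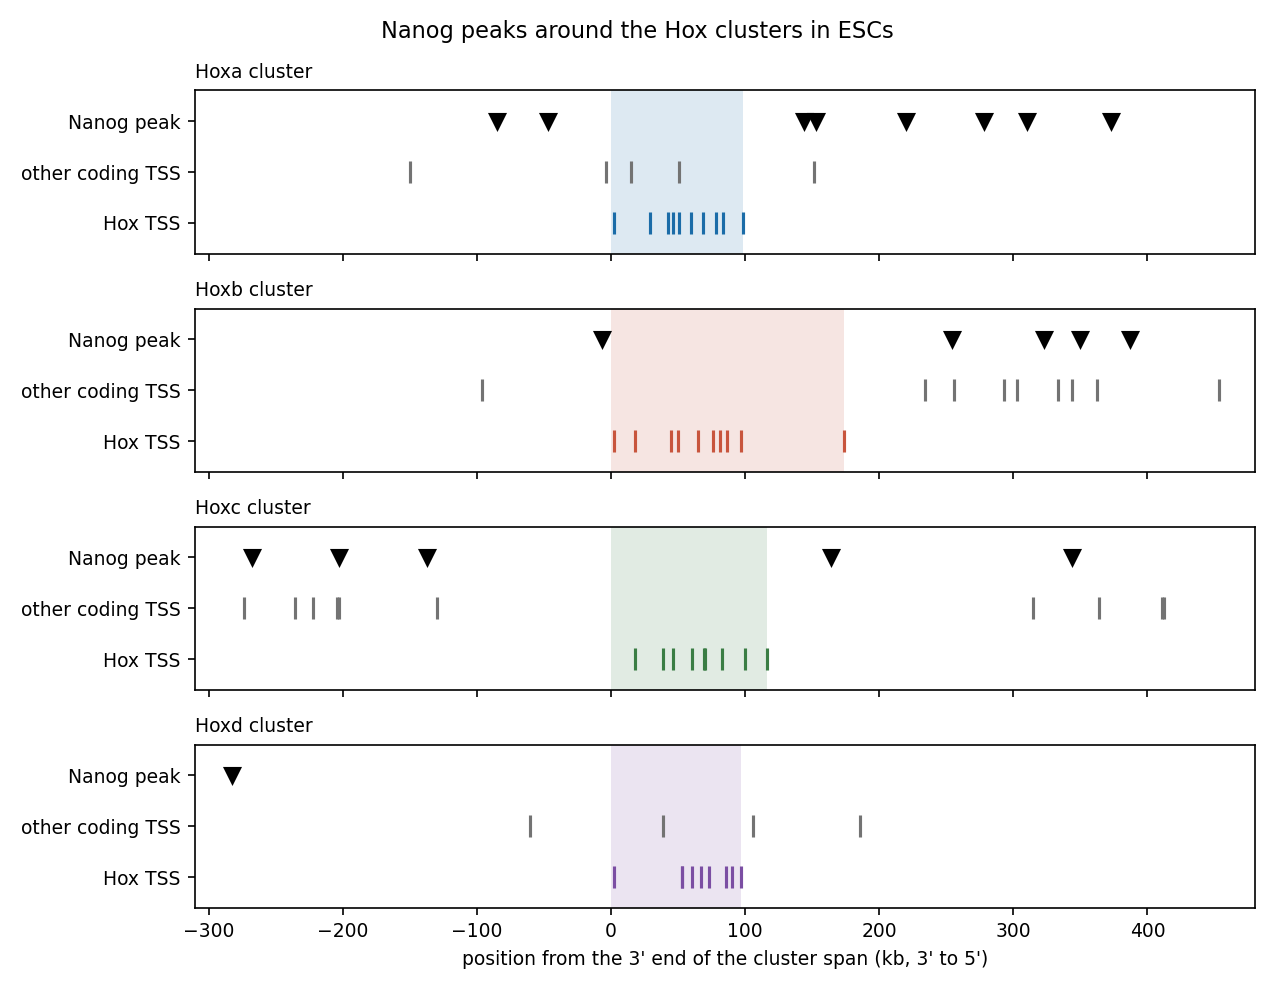
Positions of Hox TSSs (coloured ticks), other protein-coding TSSs (grey ticks) and Nanog peaks (triangles) around each cluster, in kb from the 3' end of the span, drawn up to 300 kb beyond both ends with the 5' side to the right. The shaded spans hold no triangle, the Hoxb 3' peak lies 6.79 kb from its span, and the Hoxd panel has a single peak, 283 kb from the 3' end.

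The higher density of peaks next to the clusters was not confined to their first 100 kb. In successive 100 kb steps out to 1 Mb on both sides, the 4 clusters together had between 3 and 7 peaks per step, that is 3.75 to 8.75 peaks per Mb. Over the whole 1 Mb on each side there were 55 peaks, or 6.88 per Mb (5.18 to 8.95), an interval above the 3.41 of the genome. All these intervals take peaks as independent, and they are too narrow where peaks lie in groups, as those at Evx1 do. The region around Hoxa had 18 peaks (9 per Mb, 5.33 to 14.2), that around Hoxb also 18, that around Hoxc 10 (5 per Mb, 2.4 to 9.2) and that around Hoxd 9 (4.5 per Mb, 2.06 to 8.54). Only the intervals of Hoxa and Hoxb excluded the density of the genome. Gene density did not run in the same order. The region around Hoxa had 5 protein-coding TSSs per Mb and that around Hoxc 24.5, against 21 around Hoxb, 4 around Hoxd and 8.5 over the genome. What sets the density of peaks in these regions was not tested.

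**Figure D2:**
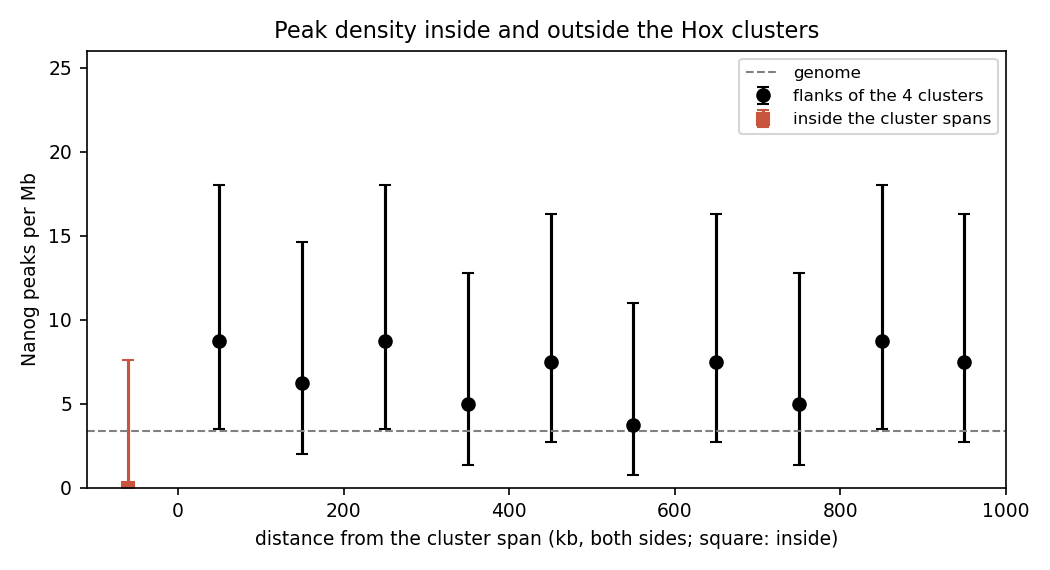
Nanog peaks per Mb (vertical axis) inside the 4 spans (square) and in 100 kb steps outside them, both sides and all clusters summed (circles), with exact 95% Poisson intervals. The dashed line is the genome at 3.41 peaks per Mb, and every circle lies above it, with most intervals reaching across it.

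The peak-free stretch that contained each cluster differed in length. From the last peak on one side to the first on the other it measured 190 kb around Hoxa, 261 kb around Hoxb, 301 kb around Hoxc and 975 kb around Hoxd. The median gap between neighbouring peaks was 123 kb over 8715 gaps. A gap at least as long as that of Hoxa made up 38.8% of all gaps, and the share was 30.8% for Hoxb, 27% for Hoxc and 6.17% for Hoxd. Long gaps hold much of the genome, so the share of sequence between peaks that lay in gaps at least as long was higher: 86.6%, 80.5%, 76.8% and 39.3%. The Hoxd cluster was thus in the longest of the 4 gaps, and its gap was of a length seen elsewhere in the genome.

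At the level of single genes, none of the 38 Hox genes had a Nanog peak within 5 kb of its TSS, where 6.25% of all protein-coding genes did. Within 50 kb, 5 of the 38 (13.2%) had a peak, against a background of 35.2%. Within 100 kb the order turned, with 24 of 38 (63.2%) against 54.8% of all protein-coding genes. The median distance to the nearest peak was 90.9 kb, compared with 85.3 kb over all protein-coding genes. These counts do not rest on 38 separate observations, because all 38 genes shared 6 nearest peaks, and they follow from the same peak-free spans. One peak beyond the 3' end of Hoxb served 9 genes, 1 beyond the 5' end of Hoxc served 9 and 1 beyond the 3' end of Hoxd served 9. The Hoxa genes were divided between the 5' peak (6 genes) and the 3' peak (4 genes), and Hoxb13 had a peak of its own.

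**Figure D3:**
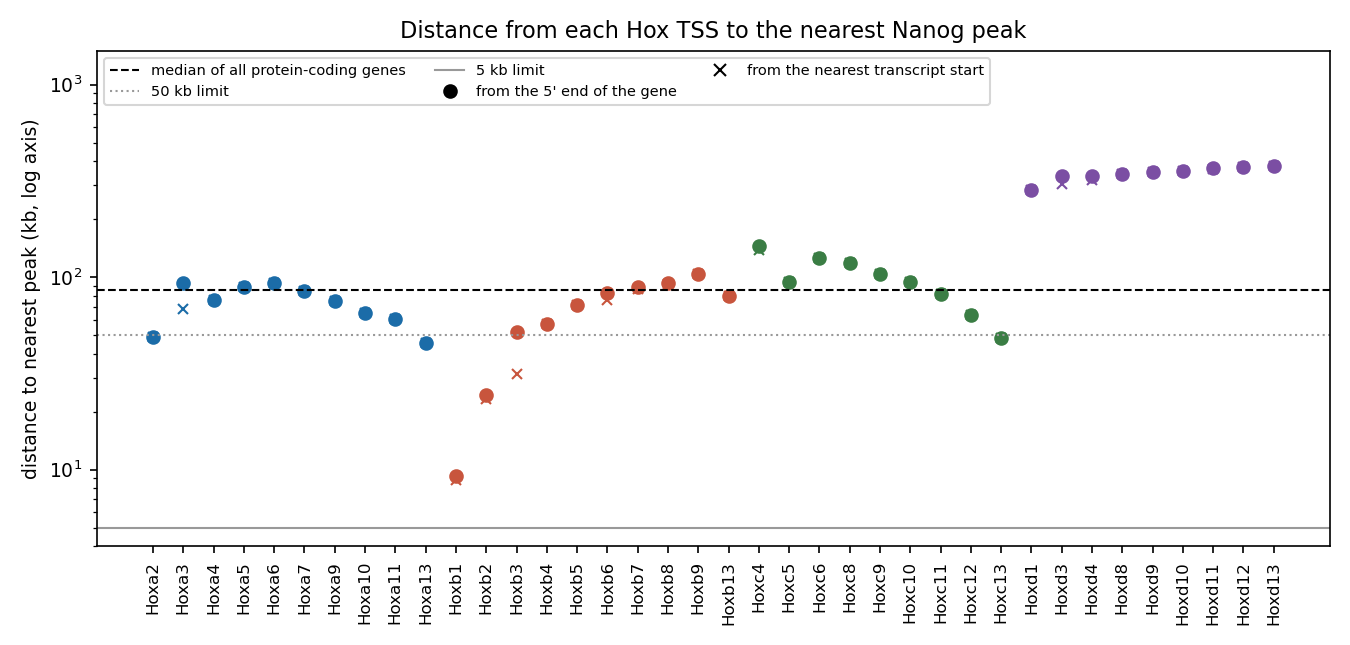
Distance from the TSS of each of the 38 Hox genes to the nearest Nanog peak (log axis, kb), from the 5' end of the gene (circles) and from the nearest transcript start (crosses), coloured by cluster. Hoxb1 is lowest at 9.29 kb, no gene reaches the 5 kb line, and the 9 Hoxd genes lie between 285 and 380 kb, above the dashed median of 85.3 kb.

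In the Hoxa cluster, the nearest peaks flanked the genes almost evenly, at 46.7 kb beyond the 3' edge and 45.4 kb beyond the 5' edge, and distances rose toward the middle of the cluster. Hoxa2 (chr6:52162417-52164831), which patterns the hindbrain and the branchial arches, lay 49.1 kb from the 3' peak. Hoxa13 (chr6:52257694-52260880), needed for the distal limb and the hindgut, lay 45.4 kb from the 5' peak, the Hoxa13 peak printed above. The farthest were Hoxa6 at 93 kb and Hoxa3 at 92.9 kb, and the distance of Hoxa3 fell to 68.1 kb when the start of every annotated transcript was allowed. Hoxa5, a regulator of lung and cervical vertebral development, lay 88.8 kb from a peak, and Hoxa9 and Hoxa10, both active in blood progenitors and in the patterning of the trunk and the reproductive tract, lay at 75.2 kb and 65.4 kb. The median of the 10 genes was 75.6 kb, and all 10 were within 100 kb of a peak.

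Both peaks on the 5' side of Hoxa lay at Evx1, the even-skipped homeobox gene next to the cluster, which acts in the primitive streak and in spinal interneurons. The peak at chr6:52305953-52306541 was intergenic, 7.25 kb upstream of the Evx1 TSS, and the peak at chr6:52314644-52315223 lay in an Evx1 intron, 1.44 kb downstream of the TSS and 0.101 kb from the start of the antisense gene Evx1os. With 589 and 580 bp they were the widest of the 7 flanking peaks, and their GC content was 57.7% and 55.2%. In the whole list they ranked 265th and 295th by width among 8735 peaks. The peaks on the 3' side of Hoxa were narrower. The one at chr6:52115591-52115907 (317 bp) was intergenic, and the one at chr6:52077443-52077699 (257 bp) lay 25.4 kb upstream of the long non-coding RNA gene Halr1 and 84.8 kb from the cluster.

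The Hoxb cluster had the member closest to a peak. Hoxb1 (chr11:96365752-96368256), which specifies rhombomere 4 of the hindbrain and responds directly to retinoic acid, lay 9.29 kb from the intergenic peak at chr11:96374863-96375228, on its 3' side, and 9.97% of protein-coding genes had a nearer peak. Hoxb2 (chr11:96350525-96354012), a hindbrain gene downstream of Hoxb1, lay 24.5 kb from the same peak. From there the distance grew along the cluster, to 51.7 kb at Hoxb3, 56.8 kb at Hoxb4, 71.7 kb at Hoxb5 and 104 kb at Hoxb9. With the start of every annotated transcript allowed, Hoxb3 came to 31.3 kb. This increase is what a single peak at one end gives for genes in a row, and it is not a separate observation for each gene. Hoxb13 (chr11:96194316-96197447), expressed in the tail bud and later in the prostate and separated from the other Hoxb genes by a wide interval, had its nearest peak on the other side. That peak, chr11:96114086-96114515, was 430 bp wide, 80 kb away and 2.34 kb upstream of Calcoco2, which encodes an autophagy receptor.

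In the Hoxc cluster, measured from the 5' end of each gene, every member was nearest to the peak at chr15:102872796-102873063. This was an intergenic interval of 268 bp on the 5' side. Hoxc13 (chr15:102921103-102928814), a regulator of hair and nail keratins, was closest at 48.2 kb. Hoxc12 followed at 63.8 kb and Hoxc11 at 81.5 kb. Hoxc10 and Hoxc9, which act in lumbar and thoracic motor neuron identity, lay at 93.9 kb and 104 kb. Hoxc8 lay at 118 kb and Hoxc6 at 125 kb. Hoxc4 (chr15:103018934-103036852), the gene at the 3' end, was farthest at 146 kb. Hoxc5 stood out of this order at 94.5 kb, because its annotated extent starts 5' of Hoxc9. The first peak on the 3' side, chr15:103173324-103173691, was 137 kb from the cluster and 6.42 kb upstream of Smug1, a DNA glycosylase gene. With the start of every annotated transcript allowed, Hoxc4 was nearest to this 3' peak instead, at 139 kb.

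The Hoxd genes were the farthest from Nanog peaks. Hoxd13 (chr2:74668310-74671599), which shapes the digits, lay 380 kb from the nearest peak, Hoxd12 373 kb, Hoxd11 369 kb, Hoxd10 356 kb and Hoxd9 351 kb. Hoxd1 (chr2:74762980-74765142), at the 3' end and active in sensory neurons, lay at 285 kb. Between 83.3% and 88.3% of all protein-coding genes had a nearer peak than these 9 genes. Their shared nearest peak, chr2:75048145-75048641, was an intergenic interval of 497 bp, 223 kb from Mtx2, the nearest protein-coding gene. On the 5' side the first peak, chr2:74073209-74073723, was 595 kb from the cluster. The order of the medians was Hoxa 75.6 kb, Hoxb 75.9 kb, Hoxc 94.5 kb and Hoxd 351 kb. Without Hoxd, the 29 remaining members had a median of 81.5 kb, and 5 of them (17.2%) had a peak within 50 kb.

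Only Hoxb1 and Hoxc13 were the nearest protein-coding gene of any peak, 1 peak each. That is 2 of 38 members, against 24.7% of all protein-coding genes. The spans held 57.5 to 122 protein-coding TSSs per Mb, against 8.5 over the genome, and the part of this packing in the count was not tested. With all annotated genes in the competition the members were the same 2, and 12.8% of all genes were nearest to a peak.

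Non-coding genes inside the clusters lie in the same peak-free spans as the Hox genes, so their distances are not a separate observation. Of 38 such genes, 0 had a peak within 5 kb. That count was fixed by the choice of genes, since the closest peak outside a span lay 6.79 kb from its edge. Within 50 kb there were 4 (10.5%), with a median of 75.4 kb, and no share over all non-coding genes was computed. The 4 were Hoxb3os (20.4 kb), Gm11536 (32.9 kb), 9530018H14Rik (48.8 kb) and Hoxaas2 (49.9 kb). Hotair, a long non-coding RNA gene between Hoxc11 and Hoxc12, lay 74.8 kb from a peak, and Haglr, next to Hoxd1, 285 kb. The microRNA genes Mir10a and Mir10b, near Hoxb4 and Hoxd4, lay at 57.9 kb and 322 kb, and Mir196b, near Hoxa9, at 76.1 kb. Of the 8 protein-coding genes with a TSS within 100 kb outside a span, Evx1 (1.44 kb) and Calcoco2 (2.34 kb) had a peak within 5 kb. Ttll6, a tubulin polyglutamylase gene beyond Hoxb13, lay at 19.5 kb. Evx2, the counterpart of Evx1 next to Hoxd13, lay at 389 kb, and Lnpk, which follows it, at 469 kb.

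Genes that act with or upstream of the Hox genes were compared by the same distance. Among the TALE homeodomain cofactors, which bind DNA together with Hox proteins, 0 of 9 had a peak within 5 kb and 6 of 9 within 50 kb, with a median of 29.3 kb. Meis3 (14.2 kb), Pknox2 (18.1 kb) and Pbx3 (26.7 kb) were nearest, and Meis1 was farthest at 526 kb. Of the Cdx and ParaHox genes, the former being direct activators of posterior Hox genes, 1 of 6 had a peak within 5 kb and 5 of 6 within 50 kb. Cdx2 lay 2.87 kb from a peak, Cdx4 9.48 kb and Cdx1 195 kb. In the retinoic acid pathway, 1 of 16 genes was within 5 kb and 5 of 16 within 50 kb, with a median of 63.5 kb. The one within 5 kb was Dhrs3 (2.09 kb), a retinaldehyde reductase. The receptor genes Rara and Rarb lay at 63.8 kb and 63.3 kb, and the retinoic acid-degrading enzyme gene Cyp26a1 at 131 kb.

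The Dlx and Irx homeobox genes, which lie in pairs or clusters of their own, and Evx1 and Evx2, which lie next to Hoxa and Hoxd, were taken as 1 list. Of these 14 genes, 3 had a peak within 5 kb (Irx4 at 0.68 kb, Evx1 at 1.44 kb and Dlx2 at 3.8 kb) and 5 within 50 kb, with a median of 75.1 kb. Dlx1, at 22.4 kb, shared its nearest peak with Dlx2, so the 5 genes do not rest on 5 separate peaks. The Evx1 peak is one of those already counted beside the Hoxa cluster. At the far end were Dlx5 at 560 kb and Dlx6 at 579 kb. Against these, 8 of 14 naive pluripotency genes had a peak within 5 kb and 12 of 14 within 50 kb, with a median of 4.93 kb. Zfp42 lay at 0.172 kb, Pou5f1, the gene of Oct4, at 1.02 kb, and Nanog itself at 4.87 kb, while Esrrb lay at 110 kb and Nr0b1 at 175 kb. The shares to read these against are the 6.25% and 35.2% of all protein-coding genes. The differences between the lists were not tested, and expression markers of ESCs cannot be read from a peak list.

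**Figure D4:**
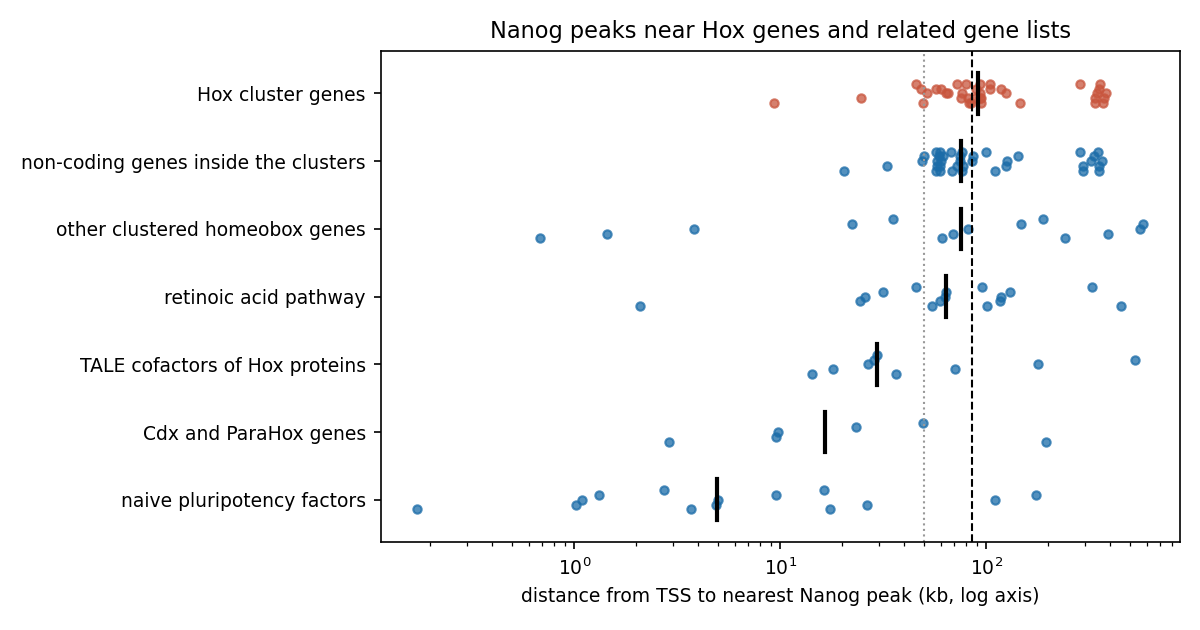
Distance from the TSS to the nearest Nanog peak (log axis, kb) for the Hox genes (red) and 6 lists (blue), 1 point per gene, with the median as a black bar. The dotted line is 50 kb and the dashed line the 85.3 kb median of all protein-coding genes, and the medians run from 4.93 kb for naive pluripotency genes to 90.9 kb for the Hox genes.

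The sequence of the clusters was then searched for short consensus motifs on both strands: the Nanog core CCATTA, its extension GCCATTAA (which contains the core), Sox (CCATTGT or CCTTTGT), the Oct octamer ATGCAAAT, Klf (CCACACCC or CCACGCCC), Esrrb (TCAAGGTCA) and a general homeodomain site (TAATTA). The 485 kb held 172 copies of the Nanog core, with 45 in Hoxa, 61 in Hoxb, 36 in Hoxc and 30 in Hoxd. This is 0.355 copies per kb, against 0.457 per kb over chromosomes 2, 6, 11 and 15 and 0.607 per kb inside the Nanog peaks of the genome. The ratio to the chromosomes was 0.776 (95% Poisson interval 0.664 to 0.901). Against 9433 windows of 10 kb with a GC content within 3 percentage points of the clusters, a comparison chosen after the data were seen, the ratio was 1.00 (0.86 to 1.17). The spans thus held the letters of the Nanog core about as often as other sequence of their composition. A match to these letters is not a binding site.

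For Klf and the homeodomain site the ratio changed sides of 1 at like GC content, but the new interval included 1 or ended at 1.00. Klf motifs (62 copies) were more frequent than on the chromosomes, with a ratio of 1.39 (1.07 to 1.78), and the ratio was 0.783 (0.601 to 1.00) against windows of like GC content. The excess over the chromosomes came mainly from Hoxa, which had 0.234 Klf motifs per kb, against 0.109 in Hoxb, 0.104 in Hoxc, 0.0826 in Hoxd and 0.0918 on the chromosomes. Without Hoxa the ratio was 1.10 (0.781 to 1.5). The homeodomain site (115 copies) was less frequent than on the chromosomes, at 0.597 (0.493 to 0.716), and came to 1.18 (0.97 to 1.41) against windows of like GC content. The Oct octamer had 16 copies, with ratios of 0.379 (0.216 to 0.615) and 0.734 (0.42 to 1.19). Sox motifs (172 copies) gave 0.88 (0.753 to 1.02) and 0.985 (0.843 to 1.14), the extended Nanog motif (18 copies) 1.38 (0.816 to 2.18) and 1.66 (0.986 to 2.63), and Esrrb (11 copies) 0.966 (0.482 to 1.73) and 0.641 (0.32 to 1.15). The clusters held 24.3 CpG dinucleotides per kb and 18.2% repeats, compared with 8.68 per kb and 32.3% over the 4 chromosomes, and 14.2 per kb and 21.5% in the Nanog peaks.

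**Figure D5:**
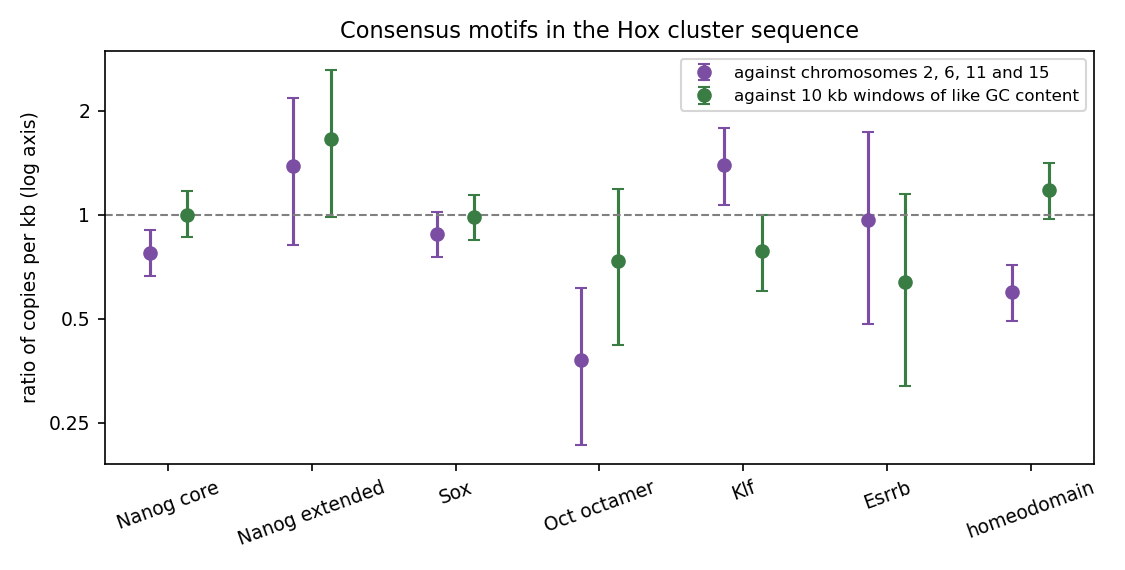
Ratio of motif copies per kb in the 4 Hox spans to chromosomes 2, 6, 11 and 15 (purple) and to 10 kb windows of like GC content (green), on a log axis with 95% Poisson intervals. The Nanog core moves from 0.776 to 1.00, and Klf and the homeodomain site change sides of the line at 1.

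The peaks next to the clusters had few of these motifs. Of the 7 peaks within 100 kb, 2 held any of the 7 motifs, against 57.4% of all 8735 peaks. The Evx1 intron peak held 1 Nanog core and 1 homeodomain site, and the peak upstream of Calcoco2 held 1 Nanog core and 1 Sox motif. The other 5, including the peak nearest to Hoxb1, held none. The Hoxd 3' peak, beyond the 100 kb limit, held 1 Nanog core and 1 Sox motif. With 7 peaks, this share was not tested against the rest.

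Promoter sequence from 250 bases before to 50 after the start was found in RefSeq (GRCm38) for 22 of the 38 members, with 24 windows. Most of these were Hoxa and Hoxd genes. Hoxb was covered only by Hoxb1, Hoxb4 and Hoxb8, and Hoxc only by Hoxc4. The Nanog core occurred in 3 of the 24 (12.5%), against 7.73% of 32851 promoters, at Hoxa5, Hoxa6 and Hoxc4. Sox motifs occurred in 2 (Hoxd3 and Hoxd11) against 9.28%, the homeodomain site in 2, both of Hoxd11, against 5.29%, and a Klf motif in 1 (Hoxa2) against 8.58%. None of the 24 held the octamer, the Esrrb motif or the extended Nanog motif. The median promoter had 14.5 CpG (4 to 45), compared with 7 over all promoters. The upstream parts for Hoxa5 and Hoxa6 are shown, since both hold a Nanog core (capitals, either strand) and yet lie 88.8 kb and 93 kb from the nearest peak. They are written in the direction of the gene, on the minus strand, as 250 bases.
Hoxa5 upstream, chr6:52204588-52204837: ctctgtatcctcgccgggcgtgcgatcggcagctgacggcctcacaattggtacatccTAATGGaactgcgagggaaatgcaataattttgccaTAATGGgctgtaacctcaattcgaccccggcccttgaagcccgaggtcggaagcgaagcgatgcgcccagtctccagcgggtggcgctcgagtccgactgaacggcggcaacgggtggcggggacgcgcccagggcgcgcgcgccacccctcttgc
Hoxa6 upstream, chr6:52208673-52208922: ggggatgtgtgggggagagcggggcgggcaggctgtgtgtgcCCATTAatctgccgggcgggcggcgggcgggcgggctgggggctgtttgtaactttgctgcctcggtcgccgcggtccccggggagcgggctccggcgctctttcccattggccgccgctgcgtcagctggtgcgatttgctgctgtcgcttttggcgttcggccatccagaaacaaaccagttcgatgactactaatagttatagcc
The Hoxa5 stretch held 2 copies of the core and the Hoxa6 stretch 1.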

How the data were processed

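Nanog ChIP-seq was performed in Bruce-4 ESCs, with 1 immunoprecipitated sample and 1 input. Per the study's methods, the authors aligned reads to mm10 with Bowtie2 after FastQC, removed low-quality, duplicate, blacklisted and mitochondrial reads with BEDtools and SAMtools, and called peaks with MACS2. The versions of Bowtie2, BEDtools, SAMtools and MACS2, the threshold of the call and the use of the input in it are not given in the sources used here. The deposited list gives chromosome, start and end in base pairs, with no score and no summit, so peak strength and depth are unknown, and a site just under the threshold reads as no peak.

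Of 8860 lines, 8737 were distinct and 8735 lay on chromosomes 1 to 19 and X. Peaks were 235 to 1256 bp wide. The density used 2559 Mb without N bases. Each peak was placed at its middle base. The TSS was the 5' end of the gene in GENCODE M21, and the span of a cluster ran from the first to the last base of its named members. Windows were taken every 10 kb. Poisson intervals are exact at 95%. No random placement of peaks was used. Python 3.11.15, numpy 2.4.6 and scipy 1.17.1 were used, and the functions were tested on simulated data.

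The members and lists were chosen with earlier results of these data known. The rule for naming was all Hox members, in full the 5 with the nearest and the 5 with the farthest peak and the end members of each cluster, the genes of the lists, genes inside or within 100 kb of a cluster, and the nearest peaks. Not every gene is reported by name. Alternatives were other peak sets, TSSs, distance limits, flanks, windows, repeat-masked sequence and, added after the data were seen, each cluster left out in turn from the motif ratios.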

Additional observations from a re-analysis of the deposited data

How the results depend on the processing

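Of 88 alternative values, 74 kept within 1.5 times of the value reported and 12 moved further. The other 2 were motif ratios whose reported interval excluded 1 and whose alternative value lay on the other side of 1. The Esrrb ratio, whose interval included 1, also crossed 1, from 0.966 to 1.36 in sequence not masked as repeat and to 1.23 without Hoxb. Without Hoxa the interval of the Klf ratio included 1, at 1.10, and that of the Sox ratio excluded it, at 0.835. The count of 0 peaks inside the clusters was the same with all lines of the list, with wider peaks, with merged peaks and with an overlap of 1 base. Restricting the list to peaks no narrower than its median, the peaks within 100 kb outside the clusters fell from 7 to 4 and the Hox genes with a peak within 50 kb from 5 to 3. Flanks of 50 kb gave 4 peaks and flanks of 200 kb gave 12. A limit of 10 kb in place of 5 kb gave 1 Hox gene, and limits of 25 kb and 100 kb in place of 50 kb gave 2 and 24. The share of windows as empty as Hoxb went from 63.5% to 38.2% at like GC content. The expectation inside the clusters went from 1.66 to 3.47 peaks with the density within 1 Mb and to 3.22 with windows of like GC content. The comparison with windows of like GC content, also chosen after the data were seen, moved the ratio of the Oct octamer to 0.734 and of Esrrb to 0.641. It took that of Klf to 0.783 (0.601 to 1) and of the homeodomain site to 1.18 (0.97 to 1.41), so an opposite direction was not shown. No paired analysis was possible because a single sample carries a peak list. The list gives no strength or depth, so weak binding inside the clusters cannot be told apart from no binding.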
